A study of Mus musculus with 6 samples.

Results

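Wnt ligands and R-spondins are the secreted proteins that switch Wnt signalling on or turn it up. The genes described are 8 Wnt ligands (Wnt2, Wnt2b, Wnt4, Wnt5a, Wnt5b, Wnt9a, Wnt10b and Wnt11) and 2 R-spondins (Rspo1 and Rspo3), chosen by name as ligands that a lung fibroblast may make. All 10 were found among the 45706 genes of the table. All 10 also reached 3 expected counts in every library, and 9 of them were abundant enough to be tested for a change.

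RNA was sequenced from primary fibroblasts grown out of digested wild-type mouse lungs. Of the 6 libraries, 3 came from control cells and 3 from cells kept for 24 hours with the recombinant mouse protein DKK1 (30 ng/ml). Mouse strain, age and sex, the number of animals behind each library, and what the control cells received in place of DKK1 are not given in the sources used here. P-values therefore measure the spread between these samples, which may be technical. Library totals ran from 22565917 to 34727102 counts, so that 3 counts correspond to between 0.0864 and 0.133 CPM, the unit of level used below, in which each count is scaled to the total of its library.

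A Wnt protein is loaded with a fatty acid by the enzyme Porcupine, carried to the cell surface by Wntless, and binds Frizzled receptors through that lipid. Together with the co-receptors LRP5 and LRP6 it stabilises beta-catenin; some ligands, Wnt5a and Wnt11 among them, are better known for signalling through ROR or RYK receptors without beta-catenin. R-spondins carry no such lipid and start no signal alone. They bind LGR receptors and the E3 ligases RNF43 and ZNRF3, which otherwise remove Frizzled and LRP6 from the membrane, and so make a cell more sensitive to Wnt. DKK1, the agent added here, occupies LRP5 and LRP6 and keeps Wnt from using them. In the lung, Wnt2 and Wnt2b from the mesenchyme specify the early organ, and Wnt5a shapes its branching.

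The short stretch around the serine that Porcupine acylates is shown to make plain what the 8 ligands share and the R-spondins lack. The coding bases below come from the GENCODE M21 transcripts of GRCm38 that the table lists for each gene, 5′ to 3′, 30 bases each, with the codon of that serine in capitals.
Wnt5a: tgtaagtgtcatggagtgTCTggctcctgt
Wnt11: tgtaaatgccatggggtgTCTggctcctgc
Wnt2: tgcaagtgtcatggtgtgAGTggctcctgt
Wnt2b: tgcaagtgtcacggtgtgAGTggctcctgt
Wnt4: tgcaagtgtcacggggtgTCGggctcctgc
Wnt5b: tgcaaatgtcacggagtcTCCgggtcctgc
Wnt9a: tgcaaatgccatggtgtgTCTggctcctgc
Wnt10b: tgcaaatgccatggaacgTCAggcagctgc
Against Wnt5a, 21 of the 30 bases were the same in Wnt10b, the most distant, and 26 in both Wnt2 and Wnt11. Wnt2 and Wnt2b alone among these 8 use AGT for the serine. No stretch of this pattern was found in the listed transcripts of Rspo1 or Rspo3.

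The 10 genes are protein coding and spread over 8 chromosomes; positions are given in GRCm38, from GENCODE M21. Wnt5a is at chr14:28504750-28527448 on the plus strand, Wnt11 at chr7:98835112-98855195 on the plus strand, and Rspo3 at chr10:29452416-29535867 on the minus strand. A close neighbour of the same family was found beside only 2 of them. Wnt10b is 11707 bases from Wnt1 on chromosome 15, and Wnt9a is 16176 bases from Wnt3a on chromosome 11. Wnt10b held 10 to 22 counts per library while its neighbour Wnt1 held 0 to 4. Wnt9a held 159 to 297 counts, and Wnt3a had none in any of the 6 libraries. The next closest pair, Wnt2 and Wnt16, is 4257642 bases apart. In each of the 2 close pairs the member thus held more counts than its neighbour, but Wnt10b was itself low.

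Wnt5a was the most abundant ligand. Adjusted for length, as CPM per kb of merged exon, its level averaged 14.3 and lay between 12.99 and 15.4 in the 6 libraries. Rspo3 came next at 8.11 on the same scale, with 6.15 to 9.91. Wnt9a at 2.49 and Wnt11 at 2.24 followed. Their ranges overlapped, Wnt9a was the higher of the pair in 4 of 6 libraries, and dividing by the longest listed transcript put Wnt11 first (2.69 against 2.50), so their order is not settled. Wnt2 at 1.21 and Wnt5b at 0.996 CPM per kb also overlapped, as did Wnt2b at 0.449 and Wnt4 at 0.418. Wnt10b (0.179) and Rspo1 (0.108) had the lowest means. Their order is not settled either, since Wnt10b was the higher in 4 of 6 libraries, and the ranges of Wnt4 and Wnt10b overlapped although Wnt4 was the higher in all 6. The other positions in this order were the same with either length.

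**Figure D1:**
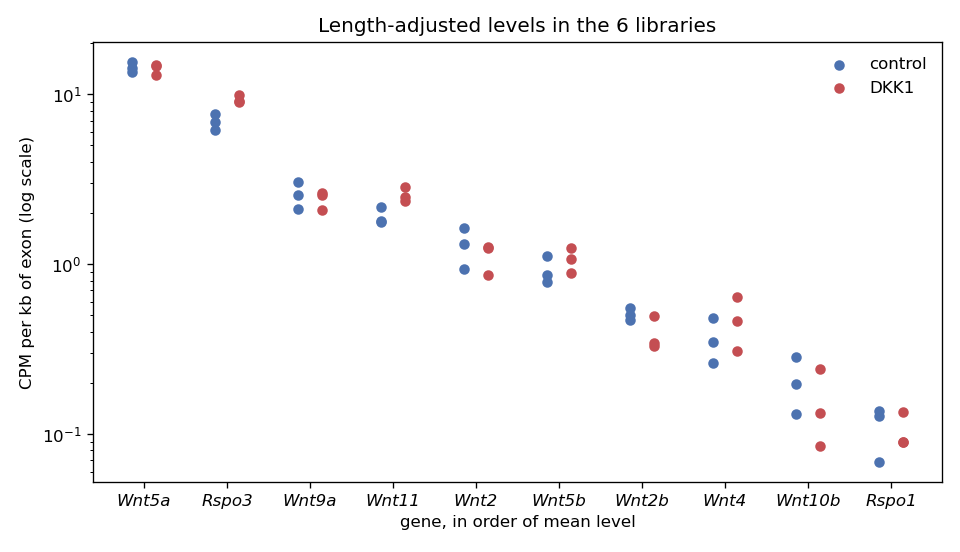
Length-adjusted level (CPM per kb of merged exon, log scale) of the 10 genes in the 3 control (blue) and 3 DKK1 (red) libraries, one point per library, in order of mean level. Wnt5a and Rspo3 stand above the other 8 in every library.

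Wnt5a alone made up 65.0% ± 1.49 of the length-adjusted level of the 8 Wnt genes in control cells and 63.3% ± 0.479 of it after DKK1 (SD over 3 libraries each). Wnt11 supplied 8.64% ± 1.02 and 11.5% ± 1.17 of the same sum. Between the R-spondins the split was more one-sided, since Rspo3 made up 97.8% to 99.1% of the pair in each library. The summed level of the 8 Wnt genes was 20.6 to 23.4 CPM per kb in control libraries and 20.5 to 23.3 in DKK1 libraries, with full overlap. In a bulk sample, a change in the share of cells that make a transcript and a change in the amount per cell cannot be told apart.

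DKK1 libraries held more Rspo3 and more Wnt11 than control libraries, and the groups of the other 8 genes overlapped. Groups that do not overlap, in either direction, were seen for 16.5% of all tested genes, so 2 members of 10 is near the background. With the group as the only term, edgeR's quasi-likelihood test called 0 of the 9 tested members at a threshold of 0.05 on p-values adjusted by Benjamini-Hochberg over all 14635 tested genes. Of all those genes it called 0.895% (0.697% higher and 0.198% lower). An unadjusted p under 0.05 was reached by 2 members, Rspo3 and Wnt11, and by 10.6% of all tested genes. DESeq2 called 1 member, Rspo3, and 1.21% of all genes it fitted; limma-voom called 0 members. Libraries that carry the same number deviated alike in both groups, so the number was also fitted as a block. With the block, 2 of 9 members were called in edgeR, 2 higher and 0 lower, against 9.42% of all tested genes (4.96% higher and 4.46% lower). The members' median log2 fold change was -0.03, beside -0.00091 over all tested genes, and the estimate was above 0 in 4 of 9.

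Rspo3 encodes the most abundant R-spondin here, with 83.9% to 92.8% of the length-adjusted level of all 4 R-spondin genes in each library. It was measured at 19.0, 23.6 and 21.2 CPM in control replicates 1, 2 and 3 and at 28.2, 30.6 and 27.7 CPM in DKK1 replicates 1, 2 and 3. The lowest DKK1 library was above the highest control library, a separation in this direction shown by 9.4% of all tested genes. The means were 21.3 ± 2.29 and 28.8 ± 1.55 CPM (SD, n = 3 each), and the log2 fold change was 0.43 (SE 0.08, 95% interval 0.24 to 0.62), or 1.35-fold. The edgeR adjusted p was 0.0634 without the block and 0.000122 with it, and the ratio of DKK1 to control within same-numbered pairs was 1.48, 1.30 and 1.31. DESeq2 gave adjusted p-values of 0.0035 without and 0.00218 with the block. Leaving out 1 library at a time, without the block, gave log2 fold changes of 0.36 to 0.52 and no call in any of the 6 fits.

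Wnt11, a ligand best known for guiding cell movement and polarity, was the only Wnt gene whose groups did not overlap. Its level was 7.31, 7.46 and 8.96 CPM in control replicates 1, 2 and 3 and 9.77, 10.3 and 11.8 CPM in DKK1 replicates 1, 2 and 3. Replicate 3 was the highest in both groups. The means were 7.91 ± 0.911 and 10.6 ± 1.08 CPM (SD, n = 3 each). This is a difference of 0.42 on the log2 scale (SE 0.11, 95% interval 0.16 to 0.68), or 1.34-fold. The edgeR adjusted p was 0.185 without the block and 0.00509 with it. In same-numbered pairs the ratio was 1.34, 1.38 and 1.32. DESeq2 did not call Wnt11, with adjusted p-values of 0.163 without and 0.239 with the block, so its call rested on the block in edgeR.

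**Figure D2:**
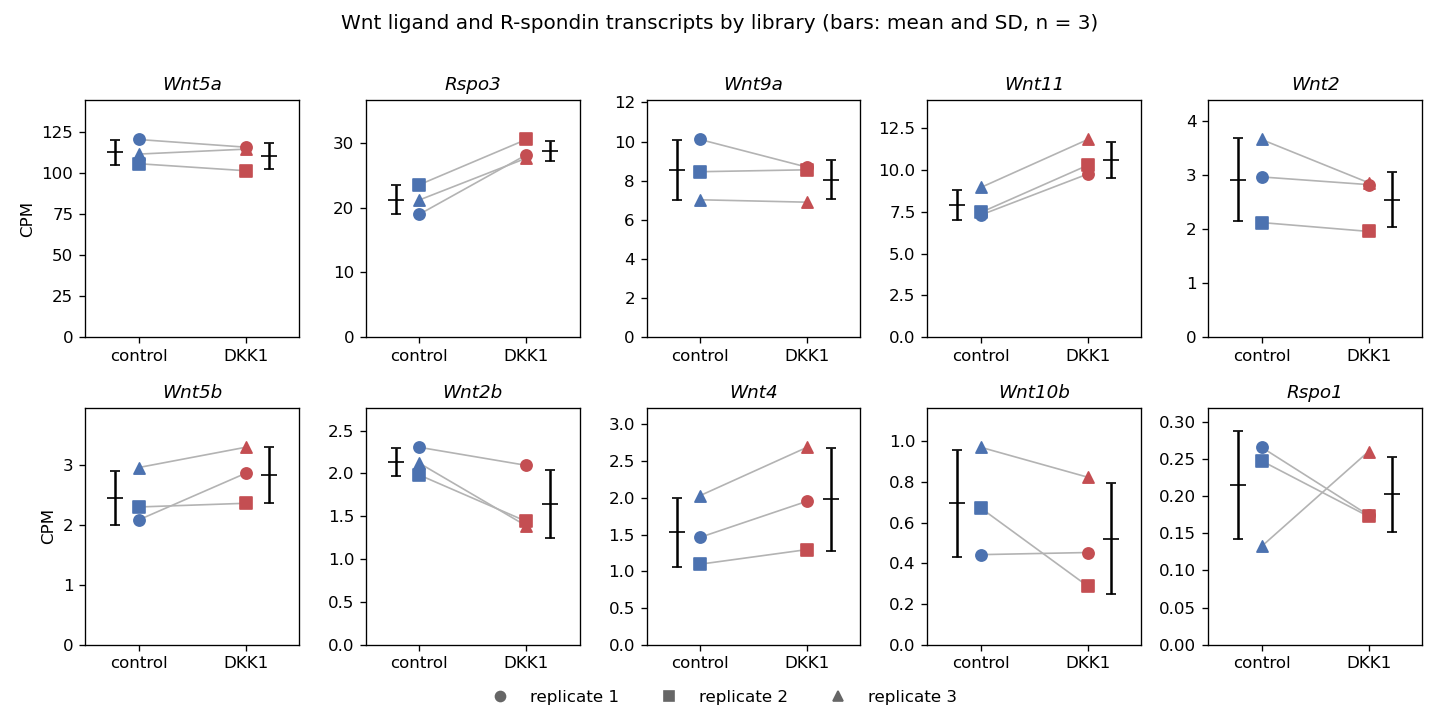
CPM of each of the 10 genes in control (blue) and DKK1 (red) libraries, with a marker shape per replicate number, grey lines joining same-numbered libraries, and black bars for mean and SD (n = 3). Each panel has its own axis from 0; Rspo3 and Wnt11 are the 2 genes whose groups do not overlap.

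The ratio of these genes to Wnt5a within a library does not depend on how libraries are scaled. Rspo3 stood at 0.399, 0.564 and 0.481 of the length-adjusted Wnt5a level in control replicates 1, 2 and 3 and at 0.616, 0.763 and 0.611 in DKK1 replicates 1, 2 and 3. For Wnt11 the ratio was 0.115, 0.133 and 0.152 in control and 0.159, 0.192 and 0.195 in DKK1 libraries. Neither ratio overlapped between the groups. These ratios were chosen with the values of both genes known and are given without a test.

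Wnt5a, the ligand at the top of the order, was the most precisely measured. It stood at 120.7, 105.9 and 111.7 CPM in control replicates 1, 2 and 3 and at 116.0, 101.6 and 114.8 CPM in DKK1 replicates 1, 2 and 3, with overlapping groups. The log2 fold change was -0.03 (SE 0.06), with a 95% interval of -0.18 to 0.11 without the block and -0.10 to 0.03 with it (edgeR adjusted p = 0.924 and 0.595). The fold seen for Rspo3 lies outside both intervals. Its sign depended on single libraries: it was 0.02 without control replicate 1 and also 0.02 without DKK1 replicate 2. Part of the Wnt5a counts were not whole in 4 of 6 libraries, so RSEM had divided some reads between loci. It overlaps Gm2670 on the opposite strand, which held 9.59 to 33.2 counts.

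Its closest relative, Wnt5b, was far lower, at 2.08, 2.30 and 2.96 CPM in control and 2.86, 2.36 and 3.30 CPM in DKK1 replicates 1, 2 and 3. Its groups overlapped, with DKK1 higher in 3 of 3 same-numbered pairs. The log2 fold change was 0.20 (95% interval -0.26 to 0.66, edgeR adjusted p = 0.802 without and 0.552 with the block). That estimate became 0.09 without DKK1 replicate 3, 0.10 without control replicate 1, 0.32 without DKK1 replicate 2 and 0.35 without control replicate 3. Wnt5b overlaps Fbxl14 on the opposite strand, which held 1001 to 1447 counts against 47 to 82 for Wnt5b. The expected counts of Wnt5b were whole in all 6 libraries and those of Fbxl14 were not whole in 1. The overlap was found from the start and end of each gene, and whether the 2 genes share exon bases was not examined. Whether the counting used strand is not given in the sources used here, so the Wnt5b level is uncertain if they do.

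Wnt2 and Wnt2b, the ligands of early lung mesenchyme, had lower means in DKK1 libraries, but neither passed the test. Wnt2 was at 2.97, 2.12 and 3.66 CPM in control and 2.83, 1.96 and 2.86 CPM in DKK1 replicates 1, 2 and 3, lower in each of the 3 pairs (log2 fold change -0.20, 95% interval -0.76 to 0.36, edgeR adjusted p = 0.852). The Wnt2 estimate was -0.39 without control replicate 2, -0.01 without control replicate 3 and -0.04 without DKK1 replicate 2. Wnt2b was at 2.30, 1.98 and 2.12 CPM in control and 2.09, 1.44 and 1.39 CPM in DKK1 libraries. DKK1 replicate 1 lay inside the control range and the other 2 DKK1 libraries below it. Wnt2b was lower in each of the 3 pairs, with DKK1 to control ratios of 0.908, 0.727 and 0.655. The log2 fold change of Wnt2b was -0.38 (95% interval -0.88 to 0.12), with an edgeR adjusted p of 0.626 without and 0.291 with the block, and it was -0.60 without DKK1 replicate 1. From 32 to 60 counts per library stood behind these Wnt2b values.

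Wnt4, which acts in kidney and reproductive tract formation, was measured at 1.46, 1.10 and 2.03 CPM in control and 1.95, 1.30 and 2.69 CPM in DKK1 replicates 1, 2 and 3. It was higher with DKK1 in each pair, yet the groups overlapped because replicate 3 was high and replicate 2 low in both. The log2 fold change was 0.36 (95% interval -0.38 to 1.10, edgeR adjusted p = 0.776 without and 0.355 with the block). Single libraries moved the Wnt4 estimate: it was 0.09 without DKK1 replicate 3, 0.16 without control replicate 2, and 0.60 without control replicate 3 or without DKK1 replicate 2. Wnt9a, known from joint formation, had 10.1, 8.45 and 7.02 CPM in control and 8.69, 8.55 and 6.90 CPM in DKK1 libraries, and replicate 3 was the lowest in both groups. Its log2 fold change of -0.08 (95% interval -0.43 to 0.26, edgeR adjusted p = 0.913) turned to 0.05 without control replicate 1 and to 0.01 without DKK1 replicate 3.

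The 2 least abundant genes gave little precision. Wnt10b, which favours bone over fat formation, was read 10, 19 and 22 times in control and 13, 10 and 19 times in DKK1 replicates 1, 2 and 3; its log2 fold change was -0.47 with a 95% interval of -1.49 to 0.55 (edgeR adjusted p = 0.789). Leaving out DKK1 replicate 3 moved the estimate to -0.92, leaving out control replicate 3 to -0.18, and leaving out DKK1 replicate 2 to -0.15. Rspo1 was read 6, 7 and 3 times in control and 5, 6 and 6 times in DKK1 replicates 1, 2 and 3. At 3 to 7 counts it only just reached the floor of 3, did not pass the low-count filter, and was not tested.

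**Figure D3:**
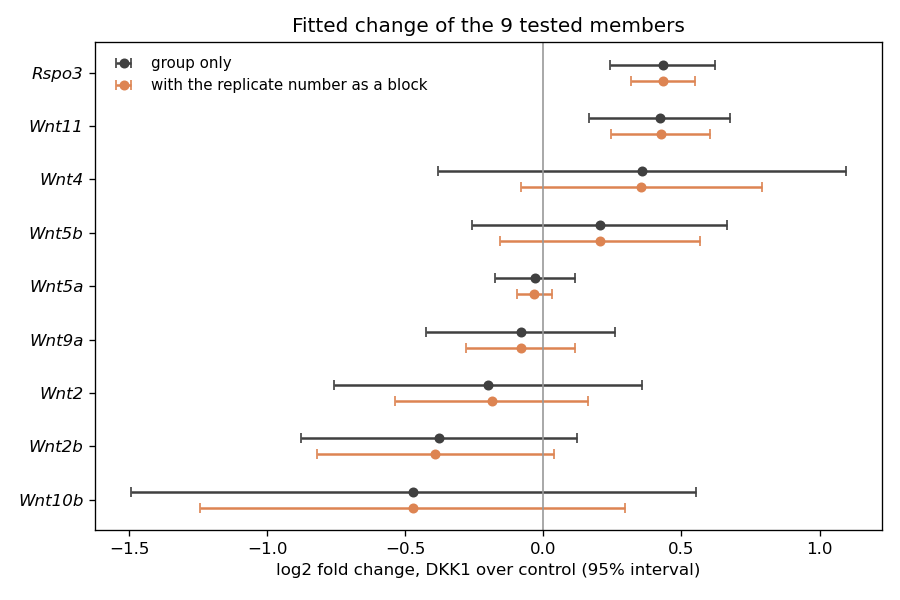
Log2 fold change of DKK1 over control with 95% intervals for the 9 tested genes, with the group as the only term (dark) and after adding a term for replicate number (orange). The intervals of Rspo3 and Wnt11 lie above 0 in both fits and those of the other 7 genes include 0.

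Markers listed for cell types other than fibroblasts set the libraries numbered 3 apart in both groups. The 6 fibroblast markers were Col1a1, Col1a2, Pdgfra, Thy1, Dcn and Lum. They summed to 9620, 10300 and 8790 CPM in control and to 9300, 9610 and 8300 CPM in DKK1 replicates 1, 2 and 3. The 8 epithelial markers summed to 40.6, 47.7 and 126 CPM in control and to 42.1, 37.9 and 127 CPM in DKK1 replicates 1, 2 and 3, with Scgb1a1 at no more than 3 counts. Endothelial (6 markers, 22.5 to 62.8 CPM), leukocyte (7 markers, 384 to 792 CPM, mostly Lyz2, with Cd3e at 0) and mesothelial markers (4 of 5 found, 9.73 to 31.6 CPM) were likewise highest in replicate 3 of both groups, and each overlapped between the groups. The 7 smooth muscle or pericyte markers summed to 6700 to 7450 CPM in control and 5630 to 6610 CPM in DKK1 libraries. Acta2 made up 84.6% to 86.5% of that sum. In DKK1 libraries 2 of the 7 markers were lower with no overlap. Of all tested genes, 16.5% did not overlap in either direction, which includes the 9.4% with DKK1 higher. Unlike the sums of the other lists, the smooth muscle or pericyte sum did not overlap between the groups. It was lower after DKK1 for all 3 replicate numbers, in the same libraries in which Rspo3 and Wnt11 were higher. Its part in those differences was not tested. The fibroblast sum was also lower after DKK1 for all 3 numbers, and the leukocyte sum was higher for all 3. Acta2 alone held 4770 to 6420 CPM, beside 5180 to 6320 CPM for the fibroblast marker Col1a1. Which cells made Acta2 cannot be told from bulk counts. Wnt2, Wnt4, Wnt5b, Wnt10b and Wnt11 were each highest in replicate 3 within both groups, and Wnt9a was lowest there. The part of these cells in the levels was not tested. With both libraries numbered 3 left out, the log2 fold change was 0.45 for Rspo3 (edgeR adjusted p = 0.156) and 0.44 for Wnt11 (edgeR adjusted p = 0.17).

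Because Wnt11 was the Wnt gene with separated groups, its promoter is shown. The table of RefSeq promoters (GRCm38.p6) matched 8 of the 10 genes, with 2 start sites for Wnt11. Wnt5a and Rspo3 had no entry, so their promoters were not searched. The 250 bases before each start were searched on both strands for a TCF/LEF core (CTTTGA) and an AP-1 site (TGANTCA); matches are in capitals, and none overlapped another.
Wnt11 first start, chr7:98834862-98835111, plus strand: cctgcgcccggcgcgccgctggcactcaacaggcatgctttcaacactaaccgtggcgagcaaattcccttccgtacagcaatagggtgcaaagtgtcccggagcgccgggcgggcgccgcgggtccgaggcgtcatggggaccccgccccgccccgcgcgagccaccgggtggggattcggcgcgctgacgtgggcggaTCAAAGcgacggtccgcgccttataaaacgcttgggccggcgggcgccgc
Wnt11 second start, chr7:98838595-98838844, plus strand: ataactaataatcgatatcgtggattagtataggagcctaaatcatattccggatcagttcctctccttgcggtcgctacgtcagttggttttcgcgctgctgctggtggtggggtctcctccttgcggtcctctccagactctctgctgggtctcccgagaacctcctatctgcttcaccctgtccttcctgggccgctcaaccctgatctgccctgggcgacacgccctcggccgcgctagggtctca
The first window holds 1 match, the TCF/LEF core on the minus strand, starting 50 bases before the start site; the second holds neither pattern. Such a TCF/LEF match occurs in 13.8% of the 32851 promoter windows of the same length, and an AP-1 match in 6.75%. Among the other members' windows, Wnt5b held a TCF/LEF core at one of its start sites and an AP-1 match, TGAGTCA, at another. The windows differed in base composition: GC content was 70.8% before the first Wnt11 start and 56.8% before the second. A match describes letters only, and the table of counts does not say which start was used.

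Of the genes tested, those whose levels over the 6 libraries were most like that of Rspo3, the member with the smallest unadjusted p, were Bcl3, Sp3 and Zbtb45, with Pearson correlations of log2 CPM of 0.9975, 0.9913 and 0.9903 among 10534 genes with at least 5 CPM on average. All values come from the same 6 libraries, and these genes were picked as the highest of 10534 correlations. Their log2 fold changes were 0.80, 0.09 and 0.10, beside 0.43 for Rspo3. The edgeR adjusted p-values without the block were 0.0281 for Bcl3, 0.404 for Sp3 and 0.613 for Zbtb45. Between members, Rspo3 and Wnt11 correlated at 0.777 and Wnt4 and Wnt5b at 0.886. The most negative pairs were Wnt5b and Wnt9a at -0.864, Wnt2b and Wnt11 at -0.798, and Wnt2b and Rspo3 at -0.761.

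The rest of the ligand family was sparse. Of the 13 Wnt and R-spondin genes that were not members, 3 were abundant enough to test, Rspo2, Wnt7a and Wnt7b, and 0 were called without or with the block (edgeR; 0 had an unadjusted p under 0.05). Rspo2, another R-spondin of lung mesenchyme, had 3.83 ± 1.07 CPM in control and 3.35 ± 0.585 CPM in DKK1 libraries (SD, n = 3 each), far above Rspo1 at 0.215 ± 0.0724 and 0.202 ± 0.05 CPM. Length-adjusted, Rspo2 averaged 0.702 CPM per kb against 8.11 for Rspo3. Wnt7a and Wnt7b, ligands typical of epithelium, were at 1.08 ± 0.575 and 1.14 ± 0.756 CPM in control and at 1.46 ± 0.919 and 1.33 ± 0.695 CPM in DKK1 libraries.

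Genes that load and release Wnt proteins were present. Wls, the carrier Wntless, had 280 ± 6.47 CPM in control and 271.6 ± 10.4 CPM in DKK1 libraries, and Porcn, the acylating enzyme, 3.38 ± 0.355 and 3.11 ± 0.28 CPM (SD, n = 3 each). Neither was called, nor was Notum, the enzyme that removes the lipid again; for these 3 genes edgeR made 0 calls in either fit. Without the block, 0 of them had an unadjusted p under 0.05; with it, the edgeR adjusted p of Wls was 0.2.

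Among 15 tested receptors and co-receptors of Wnt, 0 were called without the block (edgeR; 2 had an unadjusted p under 0.05, against 10.6% of all tested genes) and 2 with it, where 9.42% of all tested genes were called, so this count is near the background. Fzd1, a Frizzled receptor, had 107.7 ± 5.50 CPM in control and 122 ± 3.08 CPM in DKK1 libraries (log2 fold change 0.18, edgeR adjusted p = 0.00512 with and 0.136 without the block). Fzd5 had 32.9 ± 1.17 CPM in control and 29.0 ± 1.60 CPM in DKK1 libraries (log2 fold change -0.19, edgeR adjusted p = 0.0141 with and 0.222 without the block). For R-spondins, 6 of 6 receptor and ligase genes were tested, of which Sdc4, a syndecan that can bind R-spondin 3, was called with the block, higher, as were 4.96% of all tested genes (log2 fold change 0.23, edgeR adjusted p = 8.04e-05, against 0.238 without it). Lgr4, the most abundant LGR receptor gene, stood at 26.0 ± 1.66 and 24.9 ± 1.70 CPM, and Lgr5 at 0.451 ± 0.112 and 0.427 ± 0.0979 CPM (SD, n = 3 each).

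Among the pathway genes outside the members, the list of secreted antagonists held all the calls that edgeR made without the block. The list also includes Kremen1 and Kremen2, membrane receptors of DKK1. Of its 14 genes 6 were tested and 3 called, all higher: Frzb (log2 fold change 0.70, edgeR adjusted p = 0.0022), Sfrp1 (0.53, adjusted p = 0.026) and Sfrp2 (1.15, adjusted p = 0.0336), each a decoy that binds Wnt outside the cell. With the block Dkk2 and Dkk3 were called too, both lower, with log2 fold changes of -0.15 and -0.14 (edgeR adjusted p = 0.023 and 0.00281). In the beta-catenin core and feedback group 15 of 16 genes were tested, with 0 calls without the block (edgeR; 3 unadjusted p under 0.05, against the same 10.6%) and 2 with it, Nkd2 higher (0.32, adjusted p = 0.0126) and Dvl3 lower (-0.20, adjusted p = 0.00238). Over all 48 tested pathway genes outside the members, 3 were called without the block, and 10 with it, 6 higher and 4 lower, against 0.895% and 9.42% of all tested genes. DESeq2 with the block called 4 of them, all higher (Frzb, Sfrp1, Sdc4 and Fzd1), against 2.31% of all genes it fitted. It did not call Sfrp2 (adjusted p = 0.073), Dkk3 (0.0727), Dvl3 (0.131), Nkd2 (0.291), Dkk2 (0.496) or Fzd5 (0.541). In edgeR without the block, 2 were called after leaving out DKK1 replicate 3 and 1 after leaving out any other single library. Their median log2 fold change was -0.05.

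**Figure D4:**
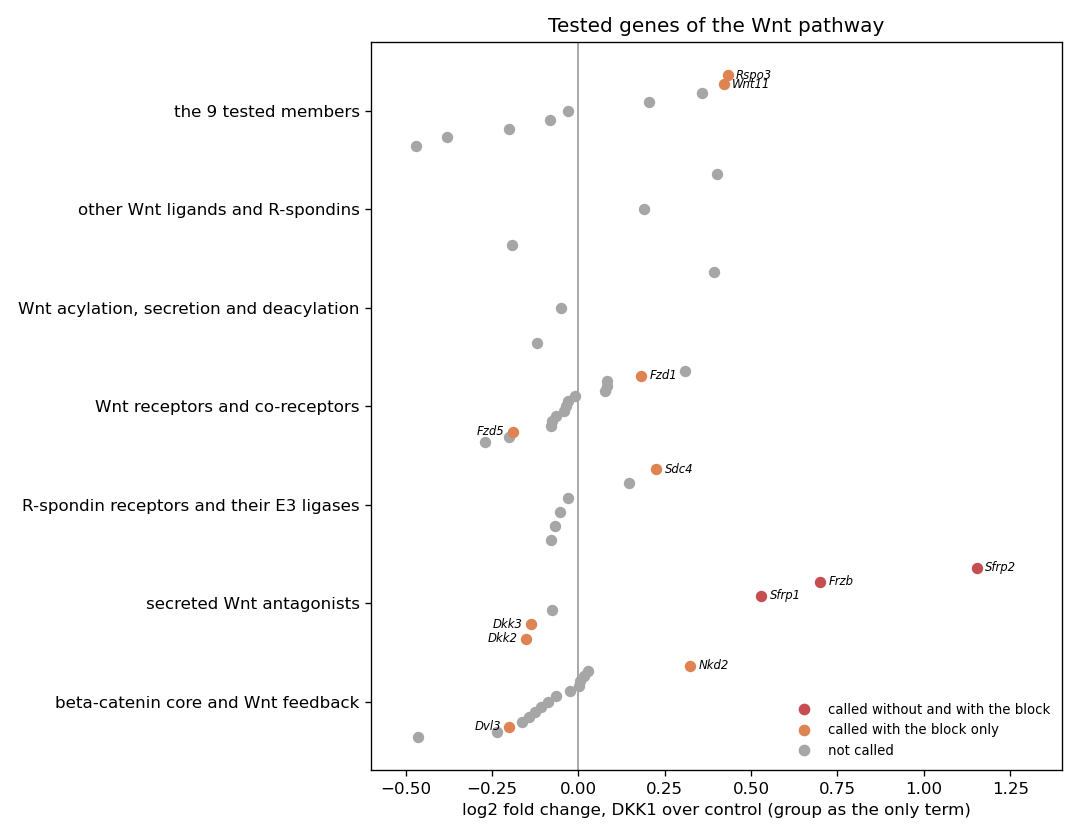
Log2 fold change of DKK1 over control for the tested genes of each group of the Wnt pathway, one point per gene, with red for genes called without and with the replicate block, orange for genes called with the block only and grey for the others; gene names mark the calls. Frzb, Sfrp1 and Sfrp2 are the 3 genes called in both fits, and Rspo3 and Wnt11 are the 2 members called with the block.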

How the data were processed

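RNA from 3 control and 3 DKK1-treated cultures was analysed. The deposited table holds RSEM expected counts per gene, not scaled by the authors; per the submitters' processing notes STAR, RSEM and edgeR 4.2.1 were used with GRCm38 (mm10). Annotation release, strandedness and filters are not given in the sources used here. From 9.62% to 10.6% of a column's values were not whole. Symbols were found for 45143 of 45706 identifiers, and GENCODE M21 gave positions and lengths.

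Counts were rounded. Genes passing filterByExpr (minimum count 10) were scaled by TMM (factors 0.9935 to 1.006) and compared between the groups by edgeR 4.0.16 in R 4.3.3 (quasi-likelihood, two-sided, group as the only term), with Benjamini-Hochberg adjustment over all 14635 tested genes and calls at an adjusted p under 0.05. The standard error is the absolute log2 fold change over the square root of F, and 95% intervals use it. CPM refers to whole library totals. A floor of 3 counts covers counting error only; reads copied by PCR are not independent without molecular identifiers. The test was checked on simulated data with known changes.

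The replicate numbers in the titles were checked as pairs: deviations from the group means correlated at 0.349, 0.335 and 0.498 for the 3 same-numbered pairs across 14635 genes, so the replicate block was fitted as an alternative. The biological coefficient of variation was 6.99% without and 2.3% with it. Other alternatives were DESeq2 1.42.0, limma-voom (limma 3.58.1), other scalings and filters, thinning, and leaving libraries out. All 10 members are named; other pathway genes are named where called in either fit, or as Wnt and R-spondin ligands, secretion genes and LGR receptors chosen after their values were seen. The members and lists were chosen with earlier results of these data known.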

Additional observations from a re-analysis of the deposited data

How the results depend on the processing

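Of the 9 tested members, 0 were called in the unpaired fit. The count was 2 with the replicate block in edgeR and 1, Rspo3, without a low-count filter, in DESeq2, and in DESeq2 with the replicate block; in the other alternatives it was 0. Over all genes the 131 calls became 1379 with the replicate block, 329 without a low-count filter, 289 in DESeq2 and 551 in DESeq2 with the replicate block, and 36 to 139 when 1 library was left out (51 without control replicate 1, 36 without control replicate 2, 44 without DKK1 replicate 1, 57 without DKK1 replicate 2); the other alternatives gave 121 to 149. Calls among the other pathway genes went from 3 to 10 with the replicate block and to between 1 and 2 with 1 library left out. The cause was not tested. The log2 fold changes of Rspo3 (0.36 to 0.52 with 1 library left out, 0.42 to 0.45 otherwise) and Wnt11 (0.34 to 0.51, 0.41 to 0.44) stayed above 0 in every alternative run. Those of Wnt5a (-0.0735 to 0.0248) and Wnt9a (-0.207 to 0.0526) changed sign with 1 library left out: Wnt5a was 0.0206 without control replicate 1 and 0.0248 without DKK1 replicate 2, and Wnt9a 0.0526 without control replicate 1 and 0.0135 without DKK1 replicate 3. All 10 members reached 3 counts under each of the 3 readings tried. Both libraries numbered 3 were left out as an alternative chosen after seeing the data. Depth limits Wnt10b and Rspo1, with at most 22 and 7 counts.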
